A study of Mus musculus with 2 samples.

Results

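The 9 genes described here, Rbp2, Bco1, Lrat, Retsat, Aldh1a1, Aldh1a2, Dhrs9, Rara and Rxra, carry vitamin A through uptake, storage, oxidation to retinoic acid and receptor binding. They were chosen by gene symbol from 31053 measured genes, and every symbol was found once in each library. Single-cell RNA-sequencing was performed on dissociated proximal small intestine of 2 APC mice (Villin-CreERT2 Apc fl/fl, VilCreER in the labels). Both mice carried 2 floxed copies of Apc, received 2 intraperitoneal injections of 2 mg tamoxifen spaced 24 h apart, and were sampled on day 4. The villin promoter limits Cre to the intestinal epithelium, so the leukocytes described here were not targets of the deletion, and a 3′ count does not tell whether an epithelial transcript lost its floxed part. All samples are from 1 genotype, so every comparison is between cell classes of the same 2 mice and says nothing of the effect of Apc loss. The dissociated cells were sorted for viability with DAPI, and molecules were counted as unique molecular identifiers (UMIs).

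Dietary vitamin A reaches the enterocyte as retinol freed from retinyl esters or as beta-carotene, which Bco1 cleaves to retinal. Rbp2 is the cellular retinol-binding protein of the absorptive cell and presents its ligand to Lrat, which makes the retinyl esters that leave in chylomicrons. In other cells of the gut wall, retinol is oxidised to retinal and then by the Aldh1a enzymes to retinoic acid, the ligand of the receptors encoded by Rara, Rarb and Rarg, which bind DNA as dimers with a retinoid X receptor such as Rxra. Retinoic acid made by intestinal dendritic cells is known for inducing the gut-homing receptors Ccr9 and the integrin of Itga4 and Itgb7 on lymphocytes.

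Bco1 and Rbp2, of the carotene and retinol routes, shared a stretch of retinoid receptor letters just upstream of their start sites. The 250 bases before each start are shown for that reason. Bco1 lies on chromosome 8 (plus strand, chr8:117095615-117095864) and Rbp2 on chromosome 9 (plus strand, chr9:98490287-98490536), in the RefSeq annotation of GRCm38.p6, the same build as the mm10 genome of the files. Capitals mark the direct repeat of AGGTCA with 1 base of any kind between its copies, or the stretch that both genes share, read here on the other strand, and the TATA letters TATAAA on either strand.
Bco1: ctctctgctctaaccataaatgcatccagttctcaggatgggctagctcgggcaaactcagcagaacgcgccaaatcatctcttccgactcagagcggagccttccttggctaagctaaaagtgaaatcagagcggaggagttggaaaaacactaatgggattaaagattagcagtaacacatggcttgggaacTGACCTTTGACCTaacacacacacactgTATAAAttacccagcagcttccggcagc
Rbp2: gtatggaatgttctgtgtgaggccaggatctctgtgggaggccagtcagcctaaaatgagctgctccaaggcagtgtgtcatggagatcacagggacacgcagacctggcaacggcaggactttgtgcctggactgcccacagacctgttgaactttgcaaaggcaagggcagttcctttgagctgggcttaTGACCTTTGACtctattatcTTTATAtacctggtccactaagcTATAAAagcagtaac
The repeat began at position -56 in Bco1, counted from the start site, and it was found in 13 of 32851 promoter windows of 300 bases (0.0396%, both strands). The stretch that Rbp2 has in common with it, the first capitals in its line, began at -58 and was found in 12 windows (0.0365%). This stretch was chosen after the sequences had been seen. The single core AGGTCA stood in 16.3% of windows and TATAAA in 13.6%, so neither is particular to these genes. The core also stood in windows of Dhrs9 (-88), Rxra (-87 and -48) and Rara (34). A match of letters is a description and does not show that a receptor binds there.

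The libraries held 9645 barcodes with 85670711 UMIs in mouse 1 and 8800 with 38716743 in mouse 2, and filtering on genes, UMIs, mitochondrial and haemoglobin share left 7941 and 6957 cells, whose median depths were 4381 and 2803 UMIs. Of the barcodes, 24 occurred in both libraries, and 16 of these were kept in both. Cells were clustered without the 9 genes or any other gene of the retinoid lists, and 7 of 44 clusters were left unnamed where marker genes gave no name. The main classes were enterocyte-like cells (754 and 168 in mice 1 and 2), crypt-progenitor-like cells (112 and 29), T-cell-like cells (2912 and 5139), macrophage-like cells (387 and 182), monocyte-like cells (203 and 239) and dendritic-like cells (135 and 56). Marker counts fitted most of these names, with 10 to 12 of 13 enterocyte markers counted in each enterocyte-like cluster, 18 of 19 in the crypt-progenitor-like, 10 and 12 of 14 in the dendritic-like and 9 to 12 of 12 in the macrophage-like clusters. The names of monocyte-like cells were less clear: the larger cluster (162 and 175 cells) counted 6 of 9 monocyte markers but also 11 of 12 macrophage markers, and the smaller 9 of 9 and 7 of 12. The Paneth-like cluster (34 and 34 cells) counted 10 of 10 Paneth markers, 8 of 8 goblet markers and 6 of 11 enteroendocrine markers, and its leading genes were Tff2, Cck and Spink4, so its name is uncertain. Levels are given in the usual CPM unit, scaled to the UMIs summed over a class in 1 mouse, with 95% Poisson intervals that cover counting error only. In summed cells, a smaller share of expressing cells and less RNA per cell cannot be told apart.

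Rbp2 was by far the most counted of the 9 genes, with 68528 UMIs in kept cells, of which 84.6% lay in enterocyte-like cells. Its level there was 9828 CPM in mouse 1 (95% interval 9736 to 9920) and 20978 CPM in mouse 2 (20634 to 21327), and 691 of 754 and 154 of 168 cells carried at least 1 UMI. In crypt-progenitor-like cells the level was 63.7 CPM (52.4 to 76.7) in mouse 1 and 785.9 CPM (713.9 to 863.1) in mouse 2. The classes did not overlap in either mouse, although the crypt value of mouse 2 rested on few cells: 9 of 29 cells carried its 437 UMIs, and 1 of them carried 230. Of the 38 crypt-progenitor-like cells with Rbp2 in both mice, 19 also carried Fabp1, the fatty acid-binding protein of the enterocyte, against 19 of the 103 without Rbp2. By the edgeR quasi-likelihood test, enterocyte-like cells exceeded crypt-progenitor-like cells by 5.41 ± 1.39 on the log2 scale (SE; adjusted p-value 0.00488; 7.71 in mouse 1 and 5.19 in mouse 2).

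In the 8 leukocyte-like classes of the fit Rbp2 lay between 2.67 and 91.99 CPM, and the few neutrophil-like cells (18 and 9) had 250.1 and 106 CPM, from 15 and 4 UMIs. In monocyte-like cells of mouse 1, 138 of 191 UMIs came from a single cell. T-cell-like cells, which should lack this gene, carried an Rbp2 UMI in 9.14% of cells in mouse 1 and 2.86% in mouse 2 (3.23% and 1.33% after thinning to 1000 UMIs per cell), at median depths of 3187 and 2553 UMIs. In enterocyte-like cells the shares were 91.6% and 91.7% at median depths of 3742 and 2386 UMIs. For each UMI of the 13 enterocyte markers, T-cell-like cells held 0.101 and 0.239 Rbp2 UMIs, against 0.209 and 0.273 in enterocyte-like cells. This ratio lay between 0.0533 and 0.429 over the leukocyte-like classes of the fit, ends that rest on 4 and 3 Rbp2 UMIs. The 13 markers were also counted in pancreatic-acinar-like cells, named in mouse 1 only (173 cells, 52721 marker UMIs, 31 Rbp2 UMIs). Beside Fabp1 alone, Rbp2 had 299 to 340 and 188 to 247 UMIs in T-cell-like cells. In enterocyte-like cells these counts were 43797 to 40560 and 14153 to 16628. The part of free enterocyte or acinar RNA in these values was not tested, and no expression is read from the leukocyte levels here.

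Bco1, which opens the carotene route, was counted only 24 times in kept cells. Most of these UMIs lay in the Paneth-like cluster, at 5.32 CPM in mouse 1 (1.10 to 15.5) and 26.1 CPM in mouse 2 (12.5 to 47.9), while enterocyte-like cells had 1.35 CPM in mouse 1 (6 UMIs in 5 cells) and no UMI in mouse 2. Over both mice the Paneth-like level was 11.7 times that of enterocyte-like cells (counting interval 4.16 to 37.6). All 9 cells of this cluster with Bco1 also carried Neurod1, a transcription factor of enteroendocrine cells, against 12 of the other 59. Only 2 of the 9 carried the Paneth defensin Defa24, against 46 of the 59. Neurod1 was picked for this count after the values had been seen. Bco1 was too low for the test between classes.

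Lrat, the esterifying enzyme, had 30 UMIs in kept cells. Enterocyte-like cells held 8 of them, in 8 cells of mouse 1 (1.80 CPM, 0.775 to 3.54), and crypt-progenitor-like cells 3 (1.72 CPM, 0.355 to 5.03). No Lrat UMI was seen in either class of mouse 2, where 3 counts would correspond to 4.45 and 5.40 CPM, so the mice could not be told apart. A further 16 UMIs came from 5 cells of 1 macrophage-like cluster of mouse 1. All 5 also carried the fibroblast genes Col3a1 and Dcn, picked after the values had been seen. Of the other 63 cells of that cluster, 2 carried Col3a1 and 0 carried Dcn. Col3a1 stood at 134.3 CPM in macrophage-like cells of mouse 1 and at 0 in mouse 2, and the part of these cells in the Lrat value was not tested. No other leukocyte-like class had more than 1 Lrat UMI.

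Retsat, which saturates retinol to dihydroretinol, was highest in enterocyte-like cells, at 26.9 CPM in mouse 1 (22.3 to 32.2) and 13.3 CPM in mouse 2 (6.1 to 25.3). Crypt-progenitor-like cells had 4.59 CPM (1.98 to 9.05) and 1.80 CPM (0.0455 to 10.0), so enterocyte-like cells were higher in both mice, with intervals that overlapped in mouse 2, where the values rest on 9 and 1 UMIs. The difference was 2.77 ± 0.57 (SE) on the log2 scale (edgeR adjusted p-value 0.000953), at 2.96 and 3.19 in the 2 mice. Within the enterocyte-like class, Retsat was uneven: the cluster led by the apolipoprotein genes Apoa1 and Apoa4 had 34.8 and 15.8 CPM and the cluster led by Gsta1 and Lypd8 had 41.9 and 24.8 CPM, while the cluster led by Fabp2 and Fabp1 had 4.37 and 9.61 CPM and the shallow cluster led by Ada and Krt20 had 9.18 and 0 CPM. Rbp2 was 11427 and 24744 CPM in the apolipoprotein cluster, 6840 and 9221 CPM in the Gsta1 cluster and 11196 and 27712 CPM in the Fabp2 cluster, so the order of these clusters differed between the 2 genes in both mice. In mouse 2 no cluster held more than 4 Retsat UMIs. These clusters share their libraries and were not tested against each other. Outside the epithelium the next levels were in macrophage-like (8.18 and 5.31 CPM) and monocyte-like cells (3.85 and 5.11 CPM).

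Aldh1a1 and Aldh1a2, which both oxidise retinal to retinoic acid, were counted in different compartments. Aldh1a1 was an enterocyte gene: its level was 35.2 CPM in mouse 1 (29.9 to 41.2, 110 of 754 cells) and 121.5 CPM in mouse 2 (96.7 to 150.9, 43 of 168 cells). Crypt-progenitor-like cells had 3.44 CPM (1.26 to 7.49) and 3.60 CPM (0.436 to 12.99), and no UMI was seen in dendritic-like, innate-lymphoid-like or plasmacytoid-dendritic-like cells. Enterocyte-like cells exceeded crypt-progenitor-like cells by 4.57 ± 0.85 (SE) on the log2 scale (edgeR adjusted p-value 0.000627), at 3.75 and 5.45 in the 2 mice. T-cell-like cells had 0.305 CPM in mouse 1 (3 UMIs) and no UMI in mouse 2. Over both mice the enterocyte-like level was at least 49.6-fold higher than in dendritic-like cells, set against a floor of 3 counts over both mice. Among enterocyte-like clusters the level lay between 25.3 and 40.2 CPM in mouse 1 and between 26.2 and 183 CPM in mouse 2. Aldh1a1 lies on chromosome 19 (20492715 to 20643465, plus strand) beside its close relative Aldh1a7 (20692953 to 20727562, minus strand), and reads of such a pair can be split in counting. Aldh1a7 was seen in 16 of the 153 enterocyte-like cells with Aldh1a1 and in 11 of the 769 without it.

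Aldh1a2 (chromosome 9, 71215789 to 71296243, plus strand) showed the opposite distribution. None of its 153 UMIs was in an epithelial class, and 58.2% were in dendritic-like cells, at 31.0 CPM in mouse 1 (24.3 to 39.1) and 19.5 CPM in mouse 2 (11.3 to 31.2). Of the dendritic-like cells, 46 of 135 and 11 of 56 carried at least 1 UMI, at median depths of 16873 and 14649 UMIs. The shares were 3.197% and 1.51% when cells were thinned to 1000 UMIs, against 0.648% and 1.44% in macrophage-like, 0.554% and 0.397% in monocyte-like and 0.0141% and 0% in T-cell-like cells. The thinned shares of dendritic-like and macrophage-like cells were thus close in mouse 2. Thinning left out 58 of the 182 macrophage-like cells there as too shallow, and no dendritic-like cell. The 8 macrophage-like UMIs of mouse 2 lay in 4 cells, 1 of which held 5. Plasma-cell-like cells had 0.313 and 0.162 CPM (15 and 2 UMIs), and T-cell-like cells held 1 UMI in mouse 1. Macrophage-like cells had 9.54 CPM (5.22 to 16.0) and 10.6 CPM (4.58 to 20.9), and monocyte-like cells 4.82 CPM (2.31 to 8.86) and 4.18 CPM (1.91 to 7.94). The dendritic-like level lay above both in each mouse, and its interval overlapped the macrophage-like interval in mouse 2. Over both mice it was 2.81 times the macrophage-like level (counting interval 1.75 to 4.71), 6.20 times the monocyte-like level (3.75 to 10.8) and at least 47.7-fold higher than in enterocyte-like cells. The test between dendritic-like and macrophage-like cells gave 1.35 ± 0.53 (SE) on the log2 scale (edgeR adjusted p-value 0.14), so with 2 mice the difference did not pass the threshold, although it had the same direction in both (1.62 and 0.87).

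Aldh1a2 levels differed between myeloid clusters of the same class, which were not tested against each other. The dendritic-like cluster led by Ppp1r14a, Plet1 and Ccl17 had 38.9 CPM (29.96 to 49.7) and 33.4 CPM (16.7 to 59.8). The dendritic-like cluster that held Cd209a and Xcr1 had 11.8 CPM (5.11 to 23.3) and 11.04 CPM (4.05 to 24.0), so the intervals overlapped in mouse 2. Epcam, an epithelial gene, was seen in 94.5% of cells of the Plet1 cluster and 19.8% of the other. Of the leading genes of the Plet1 cluster, 0 were markers used to name dendritic-like cells. Among macrophage-like clusters, that led by C1qc and Adamdec1, the largest with 226 and 72 cells, had none. A macrophage-like cluster of low depth (78 and 46 cells, median 850 and 838 UMIs) had 26.3 CPM (10.6 to 54.1) and 67.9 CPM (24.9 to 147.8), from 5 and 2 cells. Of the 14 macrophage-like cells with Aldh1a2, 5 carried a C1q transcript, the complement gene of resident macrophages, against 506 of the 555 without it. A transcript of Flt3, Ccl17, Ccl22 or Plet1, genes of dendritic cells, was seen in 8 of the 14, against 44 of the 555. In monocyte-like cells C1q went the other way, seen in 13 of the 15 cells with Aldh1a2 against 229 of the 427 without it. The dendritic genes were seen in 10 of these 15, against 86 of the 427. All these genes were picked after the values had been seen, and Plet1 and Ccl17 also lead the dendritic-like cluster with the most Aldh1a2. The part of cells with dendritic genes in the macrophage-like level was not tested.

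**Figure D1:**
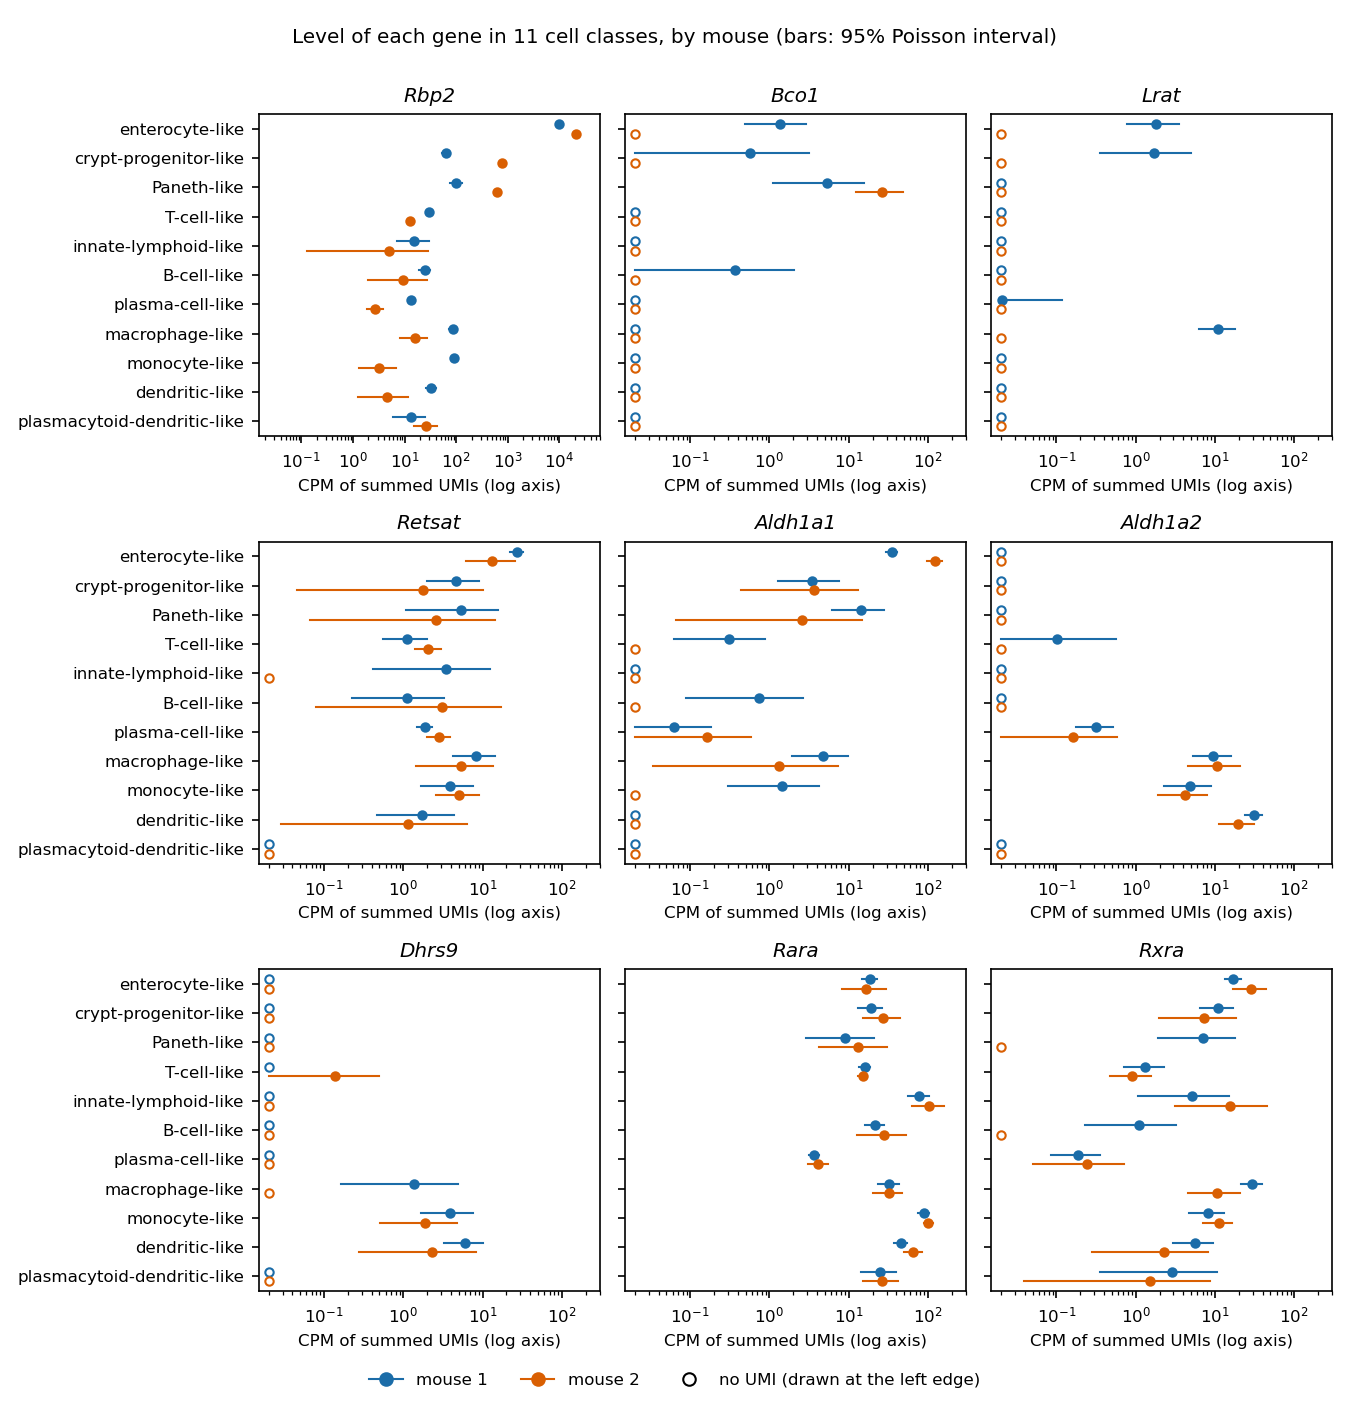
Level of each of the 9 genes in 11 cell classes, in CPM of summed UMIs on a log axis, with 1 point per mouse and bars for the 95% Poisson interval. Open circles at the left edge mark classes with no UMI. Rbp2 and Aldh1a1 were highest in enterocyte-like cells, and Rara was seen in all 11 classes. Aldh1a2 was highest in dendritic-like, macrophage-like and monocyte-like cells and was seen in no epithelial class.

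Dhrs9, a dehydrogenase that oxidises retinol, had 43 UMIs and none in an epithelial class. Dendritic-like cells had 6.03 CPM in mouse 1 (3.298 to 10.1) and 2.29 CPM in mouse 2 (0.278 to 8.28), and monocyte-like cells 3.85 CPM (1.66 to 7.59) and 1.86 CPM (0.507 to 4.76), so these classes overlapped. Of the 16 dendritic-like UMIs, 15 were in the Plet1 cluster that also had the most Aldh1a2 (8.51 and 3.04 CPM). The few neutrophil-like cells (18 and 9) held 7 and 1 UMIs. Dhrs9 was too low for the test.

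In the comparison of enterocyte-like with crypt-progenitor-like cells, 6 of the 9 genes were tested, as they passed a count filter over all classes of the fit. Of these 6, Rbp2, Retsat and Aldh1a1 were higher in enterocyte-like cells, where 19.6% of all 11754 genes tested were higher, and 0 were lower, where 19.3% of all genes were lower. Rxra, at 1.32 ± 0.58 (SE; adjusted p-value 0.083), and Rara, at -0.05 ± 0.26 (0.936), did not pass (edgeR). Aldh1a2, also among the 6, had no UMI in either class and could not be called.

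Along the villus, the enterocyte-like cells of each mouse were ranked by tip genes (such as Ada, Nt5e and Krt20) less base genes (such as Reg3b, Reg3g and Nlrp6) and divided into 3 ranges of equal size. Rbp2 was 10729, 8597 and 9841 CPM from base to tip in mouse 1 and 19151, 21378 and 23560 CPM in mouse 2, so the order of the ranges differed between mice. Rxra was highest in the tip range of both mice, at 25.1 CPM (16.9 to 35.8) in mouse 1 and 64.8 CPM (31.1 to 119) in mouse 2, against base values of 16.0 CPM (10.8 to 22.8) and 11.02 CPM (2.27 to 32.2). Retsat was lowest in the tip range of both, at 20.9 CPM (13.5 to 30.9) and 6.48 CPM (0.164 to 36.1), with base values of 28.8 CPM (21.6 to 37.6) and 22.0 CPM (8.09 to 48.0). The intervals of base and tip overlapped for both genes in both mice. A score within 0.0005 of a range limit was held by 339 cells of mouse 1 and 35 of mouse 2, so the ranges are not cell types.

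**Figure D2:**
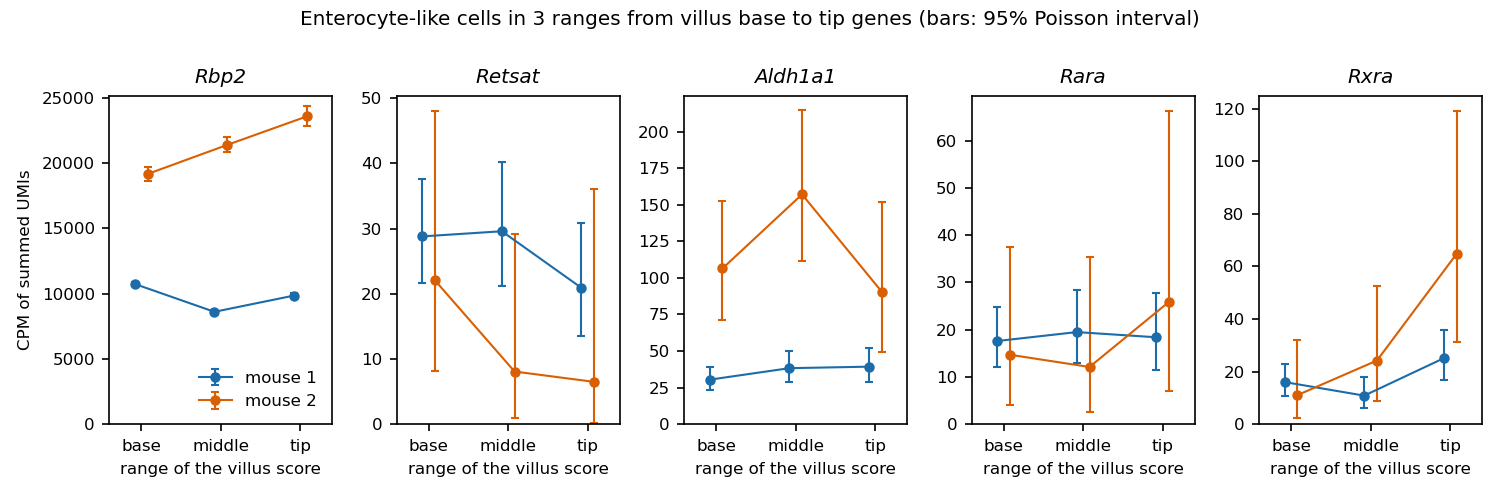
CPM of Rbp2, Retsat, Aldh1a1, Rara and Rxra in enterocyte-like cells divided into 3 ranges from villus base to villus tip genes, with 1 line per mouse and bars for the 95% Poisson interval. Rbp2 lay between 8597 and 10729 CPM in mouse 1 and between 19151 and 23560 CPM in mouse 2, with a different order of ranges, while Rxra was highest in the tip range of both mice.

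Of the 2 receptor genes, Rara was the more widely spread, while Rxra was spread about as widely as the enzyme Retsat. The class with the most UMIs held 23.8% of the Rara, 29.3% of the Rxra and 32.4% of the Retsat UMIs in kept cells. Rara, the alpha receptor of retinoic acid, was found in each of the 11 classes of the fit, and its highest levels among them were in monocyte-like cells, at 88.1 CPM (75.8 to 101.9) and 100.9 CPM (87.9 to 115), and innate-lymphoid-like cells, at 77.7 CPM (56.7 to 103.9) and 102 CPM (62.4 to 158). These 2 classes overlapped. Dendritic-like cells followed at 45.2 CPM (37.0 to 54.8) and 65.3 CPM (49.5 to 84.6), then macrophage-like cells at 32.0 CPM (23.5 to 42.6) and 31.9 CPM (20.4 to 47.4). B-cell-like, plasmacytoid-dendritic-like and crypt-progenitor-like cells lay between 18.9 and 28.0 CPM and overlapped one another. Enterocyte-like cells were at 18.4 and 16.3 CPM, T-cell-like cells at 15.9 and 15.1 CPM and plasma-cell-like cells lowest at 3.64 and 4.13 CPM. The monocyte-like cluster led by Chil3 and Ccl2 had 225 and 201 CPM, above the 55.9 and 73.8 CPM of the other monocyte-like cluster in both mice.

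Rxra, the retinoid X receptor that pairs with Rara and with many other nuclear receptors, was highest in enterocyte-like cells (16.8 CPM, 13.2 to 21.1, and 28.2 CPM, 16.96 to 44.0) and macrophage-like cells (29.3 CPM, 21.2 to 39.5, and 10.6 CPM, 4.58 to 20.9), which overlapped. The macrophage-like values came mostly from the cluster led by C1qc (45.1 and 29.7 CPM) and the cluster led by C1qa and Apoe (47.95 and 13.8 CPM), and the other macrophage-like clusters were at 5.91 CPM or less. Dendritic-like cells had 5.601 CPM (2.98 to 9.58) and 2.29 CPM (0.278 to 8.28).

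In the comparison of dendritic-like with macrophage-like cells, 1 of the 6 tested genes was higher, where 4.85% of all 11754 genes were higher, and 1 was lower, where 6.98% were lower. The higher gene was Rara, by 0.72 ± 0.23 (SE) on the log2 scale (edgeR adjusted p-value 0.0498), at 0.42 and 1.04 in the 2 mice. The lower gene was Rxra, at -2.26 ± 0.62 (SE; adjusted p-value 0.0231), with -2.43 and -2.11. Retsat, at -2.18 ± 0.75 (SE), did not pass (adjusted p-value 0.0736), and Aldh1a1, Aldh1a2 and Rbp2 had adjusted p-values of 0.165, 0.14 and 0.556. In a fit paired by mouse (replicate block), 868 genes in place of 570 were higher in dendritic-like cells. Neither gene passed when mitochondrial UMIs of up to 10% were allowed, with finer clusters, without integration, with the highest doublet scores removed or when the fit held these classes alone. The Rara fold change was -0.03 in the first of these.

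**Figure D3:**
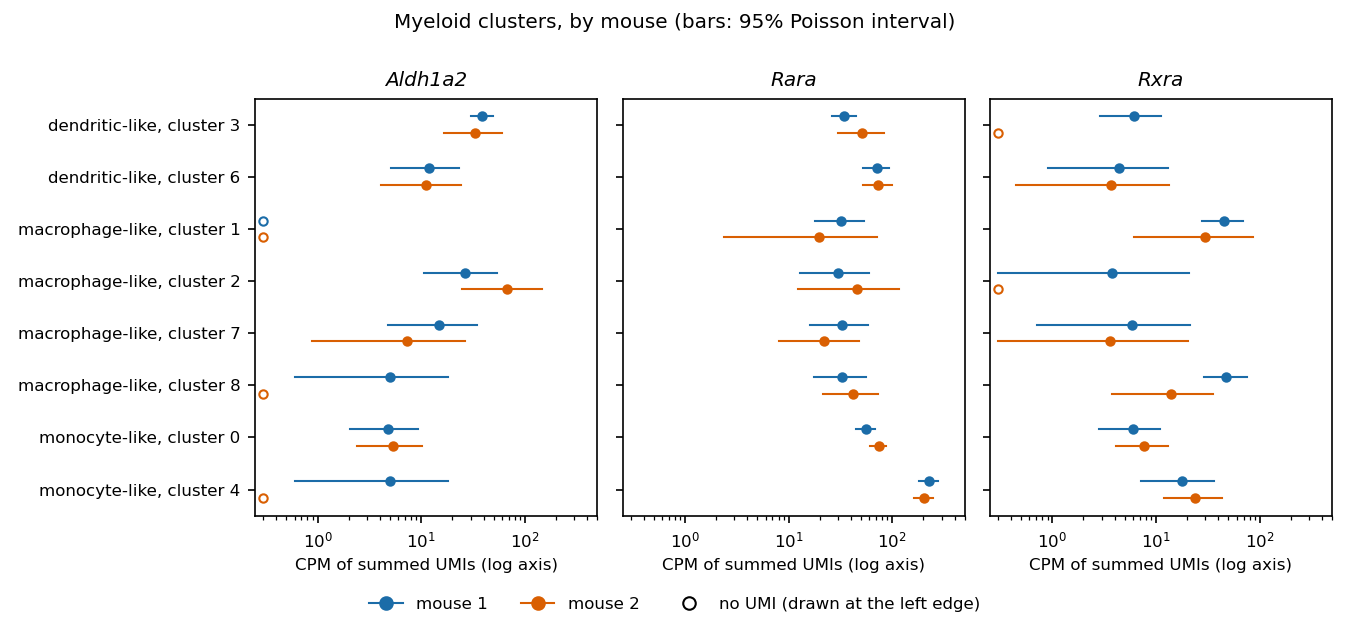
CPM of Aldh1a2, Rara and Rxra in 8 myeloid clusters on a log axis, with 1 point per mouse, bars for the 95% Poisson interval and open circles for no UMI. Aldh1a2 was highest in dendritic-like cluster 3 and macrophage-like cluster 2, Rara in monocyte-like cluster 4, and Rxra in macrophage-like clusters 1 and 8 of mouse 1.

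T-cell-like cells are a known target of retinoic acid, and their receptor transcripts were compared with the unweighted mean of the other 7 leukocyte-like classes. None of the 6 tested genes was higher, where 30.3% of all 11754 genes were, and 2 were lower, where 12.7% were. The fit gave no usable error for Aldh1a2 here (SE 159), so that gene could not be called. Rara was lower by a log2 fold change of -1.41 ± 0.17 (SE, adjusted p-value 2.53e-06, edgeR), at -1.38 and -1.64 in the 2 mice. Rxra was lower at -1.93 ± 0.52 (SE, adjusted p-value 0.00592), at -1.75 and -1.52, from levels of 1.32 CPM (0.703 to 2.26) and 0.902 CPM (0.480 to 1.54) in T-cell-like cells. The median log2 fold change over all genes was 0.22, so relative to the typical gene both differences were larger. DESeq2 with its own size factors moved the balance of calls from 3565 higher and 1487 lower genes to 2164 and 2868. Of the other receptors of the family, Rarb had 1 UMI in T-cell-like cells of both mice together and Rxrg 0. Rxrb stood at 29.8 and 31.1 CPM and Rarg at 10.97 and 8.46 CPM, the highest Rarg value of the 11 classes in both mice, with an interval that overlapped that of monocyte-like cells (8.19 and 7.44 CPM). Rxrb was at 0.19 ± 0.18 (SE) in the same comparison and did not pass the test (adjusted p-value 0.448).

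Among T-cell-like sub-clusters, Rara was 27.0 CPM (11.7 to 53.3) and 56.9 CPM (18.5 to 133) in CD4-type cells (73 and 24 cells, 8 and 5 UMIs), 18.97 CPM (13.7 to 25.6) and 17.6 CPM (11.9 to 24.95) in CD8-type cells, and 13.1 CPM (10.5 to 16.1) and 14.3 CPM (12.3 to 16.6) in gamma-delta-type cells. The remaining type, other T (95 and 24 cells, 17 and 2 UMIs), had 38.2 CPM (22.3 to 61.2) and 23.0 CPM (2.79 to 83.2). Its level was above that of CD4-type cells in mouse 1 and below it in mouse 2, with overlapping intervals. CD4-type cells were above CD8-type cells in both mice but with overlapping intervals. The difference between CD4-type and CD8-type cells, 0.81 ± 0.37 (SE) on the log2 scale, did not pass (edgeR adjusted p-value 0.512). None of the 6 tested genes was called higher or lower between these sub-clusters, where 1.84% of 11147 genes were higher and 1.09% lower. Several of the 6 had too few counts here for a call. Aldh1a2 had no UMI in either type, and Retsat had 0 UMIs in CD4-type and 3 and 1 in CD8-type cells. The fold change of Aldh1a1 had an SE of 7.73. The lack of calls is therefore no result about these genes. Rxra had 1 UMI in CD4-type cells of each mouse and could not be compared at this depth. Of the gamma-delta-type cells, a sub-cluster of 338 and 13 cells came almost wholly from mouse 1.

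**Figure D4:**
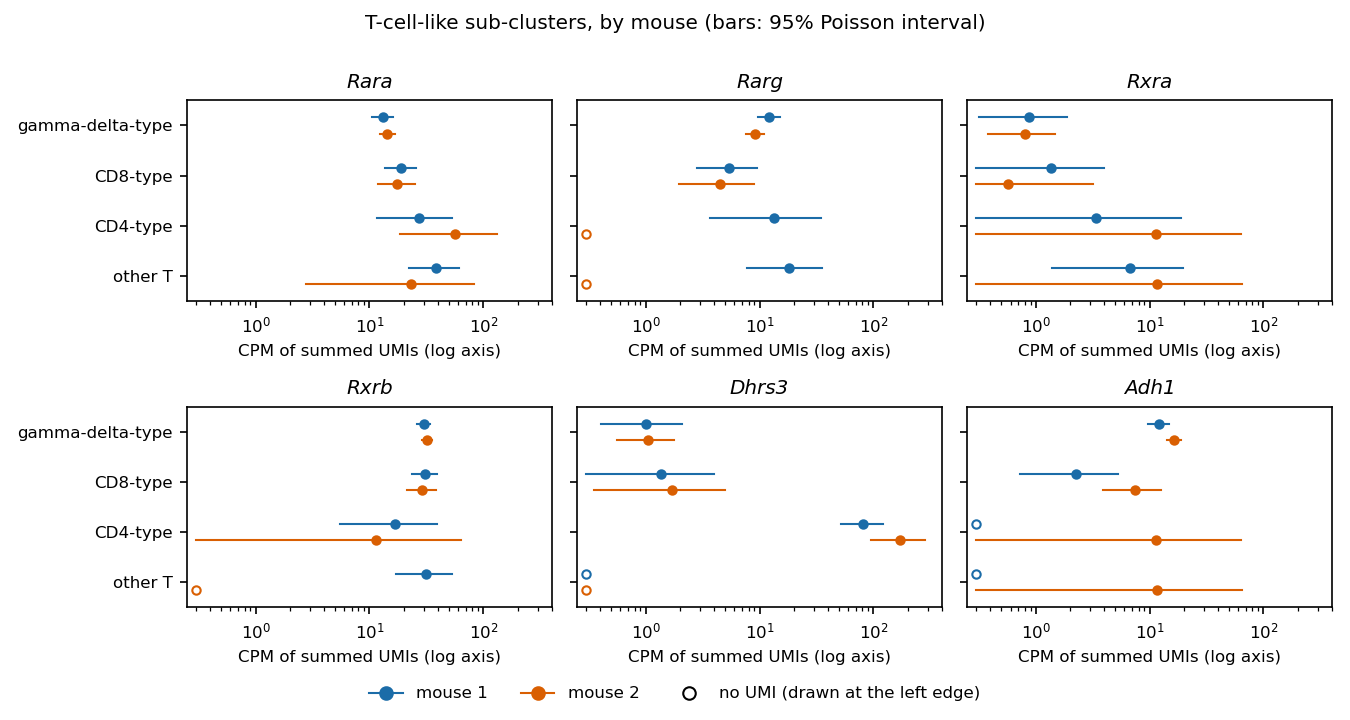
CPM of Rara, Rarg, Rxra, Rxrb, Dhrs3 and Adh1 in 4 types of T-cell-like sub-clusters on a log axis, with 1 point per mouse, bars for the 95% Poisson interval and open circles for no UMI. Dhrs3 was 81.1 and 171 CPM in CD4-type cells and at most 1.70 CPM in CD8-type and gamma-delta-type cells, while the intervals of Rara in CD4-type and CD8-type cells overlapped.

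Set against the unweighted mean of all 8 leukocyte-like classes, enterocyte-like cells were higher for 4 of the 6 tested genes, where 30.8% of all 11754 genes were higher, and lower for 1, where 32.1% were lower. Rbp2 was higher by a log2 fold change of 9.49 ± 0.68 (SE, adjusted p-value 8.95e-10, edgeR), Aldh1a1 by 8.46 ± 0.60 (7.96e-09), Retsat by 3.91 ± 0.38 (1.04e-07) and Rxra by 2.90 ± 0.40 (4.96e-06). Each was higher than this mean in 2 of 2 mice. Single classes could differ: Rxra was 29.3 and 10.6 CPM in macrophage-like cells, against 16.8 and 28.2 CPM in enterocyte-like cells. Rara was lower, at -0.63 ± 0.19 (SE, adjusted p-value 0.00686), with -0.24 and -0.73 in the 2 mice, beside a median of -0.25 over all genes. The Rara call was lost with DESeq2 (-0.51, adjusted p-value 0.067) and without the filter on low counts (-0.53, edgeR adjusted p-value 0.132). The fit gave no usable error for Aldh1a2, which had no enterocyte-like UMI.

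**Figure D5:**
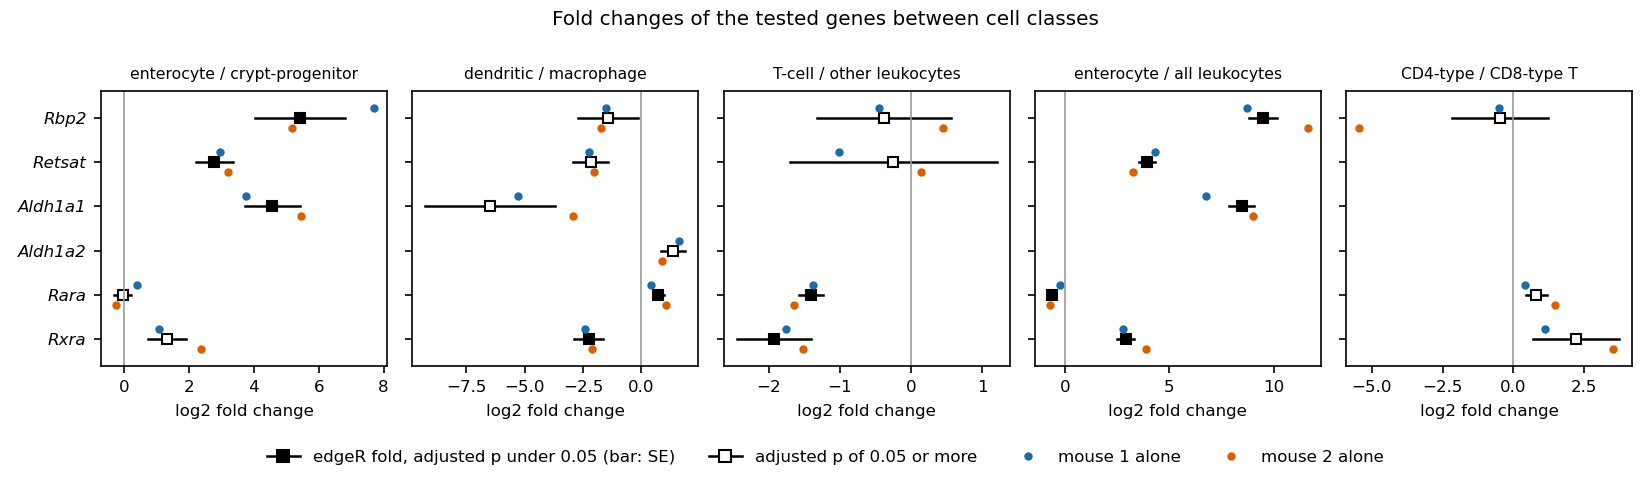
Log2 fold changes of the tested genes in 5 comparisons, as squares with the edgeR estimate and its SE, filled where the adjusted p-value was under 0.05, and as small points for each mouse alone. Rbp2, Retsat and Aldh1a1 were higher in enterocyte-like cells in both epithelial comparisons, and Rara and Rxra were lower in T-cell-like cells than in other leukocyte-like classes. Estimates with an SE of 3 or more are not drawn.

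The other genes of the pathway were taken from lists by role, whose counts include the members. Counts of tested genes also take in genes that could not be called in a comparison. Rbp4 and Rdh12, for example, had no difference and no usable error between enterocyte-like and crypt-progenitor-like cells. Between enterocyte-like and crypt-progenitor-like cells, where 19.6% of all genes tested were higher and 19.3% lower, 2 of 5 tested genes of uptake and cleavage were higher and 0 lower. They were Bco2, which cleaves carotenoids off centre (21.99 and 22.2 CPM against 2.87 and 0 CPM, edgeR adjusted p-value 0.000926), and Scarb1, a carotenoid and lipid receptor (log2 fold change 2.07 ± 0.65 SE, 0.0165). Isx, the gut repressor of Bco1 and Scarb1, stood at 50.7 and 51.9 CPM in enterocyte-like and 40.7 and 32.4 CPM in crypt-progenitor-like cells, with 0.68 ± 0.35 (SE, adjusted p-value 0.145). Of the genes of binding and esterification, Dgat1, another enzyme able to esterify retinol, was higher (3.3 ± 0.5, 5.78e-05). Fabp5, a lipid carrier that can deliver retinoic acid, was lower (2.47 and 0 CPM against 39.6 and 57.6 CPM, 1.56e-05).

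Of 10 tested genes of retinol oxidation and retinal reduction, 4 were higher in enterocyte-like than in crypt-progenitor-like cells and 0 lower, beside 19.6% and 19.3% of all genes. The reductase Akr1b7 was at 22.4 and 16.3 CPM, with no crypt-progenitor-like UMI in either mouse (edgeR adjusted p-value 0.000217), and the alcohol dehydrogenase Adh1 was higher by a log2 fold change of 4.27 ± 0.47 (SE, 3.81e-06). Of 13 partner receptors that dimerise with Rxra, 8 were higher and 0 lower, beside the same shares. Among them were Nr1i3 (61.3 and 59.3 CPM against 0 and 5.40 CPM, 0.000139) and Nr1i2 (2.12 ± 0.61, 0.0113), which sense foreign compounds, the lipid sensors Ppara (24.0 and 25.2 CPM against 2.30 and 0 CPM, 0.00156) and Pparg (3.15 ± 0.57, 0.00039), and the oxysterol receptor Nr1h3 (2.08 ± 0.50, 0.00403). Their list median was 1.89, against 0 over all genes. Of the 6 tested genes known to respond to retinoic acid, 0 were higher and 1 (Tgm2) was lower, with a list median of -0.36; 1 of 6 is near the share of all genes that were lower.

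Between dendritic-like and macrophage-like cells, 4 of the 6 tested genes known to respond to retinoic acid were higher and 1 lower, beside 4.85% and 6.98% of all genes. The integrin gene Itgb7 was higher (log2 fold change 2.90 ± 0.41 SE, edgeR adjusted p-value 0.000115), at 72.8 and 106.5 CPM against 13.6 and 7.96 CPM. Ccr9 was higher at 2.19 ± 0.54 (0.0118), Hic1, a transcriptional repressor, at 1.66 ± 0.30 (0.00143) and Itga4 at 0.99 ± 0.30 (0.0394). Dhrs3, which reduces retinal back to retinol, was lower at -2.61 ± 0.36 (0.000108), with 10.8 and 12.6 CPM against 60.7 and 79.6 CPM. Nr1h3 (-5.85 ± 0.69, 5.7e-05), Bco2 (1.29 and 0 CPM against 6.14 and 10.6 CPM, 0.035) and Thra (-2.37 ± 0.60, 0.0138) were lower as well. The list median was 1.33, against 0 over all genes. Ccr9 is also among the markers used to name plasmacytoid-dendritic-like cells, where it stood at 1007 and 1337 CPM. The T-cell gene Cd3e was seen in 32.7% and 13.6% of cells of the dendritic-like clusters. In the macrophage-like clusters, which were shallower, it was seen in 1.3% to 10.3%. Ccr9, Itgb7 and Hic1 were also higher in T-cell-like cells than in the other leukocyte-like classes. The part of T-cell RNA in the dendritic-like values was not tested.

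In T-cell-like cells, the 6 tested genes known to respond to retinoic acid were 3 higher and 3 lower than in the other leukocyte-like classes, beside 30.3% higher and 12.7% lower of all genes. Ccr9 (log2 fold change 2.16 ± 0.28 SE, edgeR adjusted p-value 5.65e-06), Hic1 (1.76 ± 0.21, 3.3e-06) and Itgb7 (1.62 ± 0.21, 7.16e-06) were higher. Dhrs3 was lower (-2.86 ± 0.30, 6.19e-07), beside Itga4 and Tgm2. Among receptor partners, Nr4a2 was higher (2.78 ± 0.37, 9.34e-06), while Vdr, the vitamin D receptor, was lower (-3.40 ± 0.77, 0.00167) and so was Nr4a1 (-2.02 ± 0.58, 0.00858). Of the uptake genes, Cd36 (-4.21 ± 0.99, 0.00248) and Scarb1 (-2.23 ± 0.59, 0.00521) were lower. Of 10 tested genes of retinol oxidation and retinal reduction, 3 were higher and 2 lower, which is near the shares of all genes, and Adh1 (3.97 ± 0.43, 1.14e-06) and Rdh12 (1.84 ± 0.40, 0.0014) had the largest increases. Of 8 corepressors and coactivators, 4 were higher and 0 lower, beside the same shares.

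Between CD4-type and CD8-type T-cell-like cells, the retinal reductase Dhrs3 stood apart. It was 81.1 CPM (51.97 to 121) and 171 CPM (95.6 to 282) in CD4-type cells and 1.36 CPM (0.280 to 3.96) and 1.70 CPM (0.351 to 4.97) in CD8-type cells. On the log2 scale this was a difference of 5.98 ± 0.50 (SE; edgeR adjusted p-value 3.69e-07). Nrip1, a nuclear receptor corepressor, was higher (1.96 ± 0.27, 8.56e-05) and so was the coactivator Ncoa3 (1.05 ± 0.29, 0.0482). Hic1 (-2.08 ± 0.43, 0.00782) and Nr4a2 (-3.22 ± 0.79, 0.0245) were lower. DESeq2 moved the balance over all genes from 205 higher and 122 lower to 338 and 69.

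The genes whose pattern was most like that of a member were found by the Pearson correlation of log2(CPM + 1) over the 22 sums of 11 classes and 2 mice, which share 2 libraries. For Rbp2 they were the enterocyte genes Fabp1 (r = 0.981), Sult1b1 (0.973) and Fabp2 (0.972). For Aldh1a2 they were Zfp366 (0.989), Ccl22 (0.981) and Clec4b1 (0.965), all genes of myeloid cells. For Rara they were Rhoa (0.897), Bhlhe40 (0.896) and Tpt1 (0.888), and for Rxra they were Wwc2 (0.881), Tnfrsf11a (0.868) and Tns4 (0.832). The highest values for the receptors were lower than those for Rbp2 and Aldh1a2.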

How the data were processed

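Proximal small intestine of 2 APC mice was dissociated and sequenced with 10x 3′ chemistry, and the authors ran Cell Ranger 6.1.2 against mm10; the annotation release is not given in the sources used here. The deposited values are counts of UMIs per gene and barcode, with 1 matrix per mouse. Barcodes with over 100 genes, over 400 UMIs, under 5% mitochondrial and under 10% haemoglobin UMIs were kept. Cells were integrated and clustered in Seurat 5.3.0 (R 4.3.3; 2000 features, 30 dimensions, resolution 0.8) without the pathway genes or Apc. A marker counted in at least 10% of a cluster's cells at a log2 fold of at least 1, and a name needed at least 3 markers; this scoring was set after the clusters had been seen, and the study may name cells differently.

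UMIs were summed per class and mouse, using classes that had 20 or more cells per mouse. The 22 sums of 11 classes (28 sums of 14 classes with T-cell-like sub-clusters) were fitted with edgeR 4.0.16 quasi-likelihood tests with Benjamini-Hochberg adjustment over all genes tested. Each edgeR SE was derived from the test, as the absolute log2 fold change divided by the square root of the F statistic. With 2 mice, p-values measure the spread between these mice. The classes come from the same animals: the deviations of the 2 mice correlated between classes at 0.117 to 0.65 (median 0.212, 55 pairs), so mouse was fitted as a block as an alternative. Scrublet in scanpy 1.11.5 (Python 3.11.15) called 1 of 7941 and 0 of 6957 cells and so did not work; no doublets were removed, and an alternative removed the 8% with the highest scores (635 and 557 cells). Cells were thinned to 1000 UMIs for shares of cells, leaving out shallower cells. Intervals (95%) and floors (3 counts) cover counting error only. The fitting script was tested on simulated data. Other alternatives were a fit without the filter on low counts, DESeq2 1.42.0, other clusterings, a mitochondrial limit of 10%, 1 mouse alone, and, added after the data had been seen, leaving out clusters of low UMI counts.

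The members and gene lists were chosen with earlier results of these data known. All 9 members are named in every comparison. Other pathway genes are named where they passed an adjusted p-value of 0.05, at most 12 per comparison by size of change, and for likeness the 3 genes with the highest correlation, among genes with at least 50 UMIs. Isx, Rarg, Rxrb, Itga4 and Tgm2 were named outside this rule, after their values had been seen, where it did not take them. A count over the binding and esterification list is not reported here.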

Additional observations from a re-analysis of the deposited data

Results flagged for a closer look

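UMIs of 6 members were also counted outside the cells and classes compared, above what a count of 0 allows. Among barcodes removed by the filters there were 1633 UMIs of Rbp2 (208 CPM), 124 of Aldh1a1 (15.8 CPM), 102 of Rara (12.99 CPM), 31 of Rxra (3.95 CPM), 29 of Retsat (3.69 CPM) and 7 of Aldh1a2 (0.891 CPM). In the 7 unnamed clusters there were 7977 UMIs of Rbp2 (1120 CPM), 115 of Rara (16.2 CPM), 49 of Aldh1a1 (6.88 CPM), 43 of Retsat (6.04 CPM), 35 of Rxra (4.91 CPM) and 5 of Aldh1a2 (0.702 CPM). One unnamed cluster of 59 and 23 cells was led by enterocyte genes, Rbp2 among them. With 2 mice, no group was large enough for a test of single samples that lie apart.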

How the results depend on the processing

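The comparison of dendritic-like with macrophage-like cells was the least stable. The members higher there (1, Rara) became 0 with DESeq2, without the filter on low counts, with the compared classes alone in the fit, with mitochondrial UMIs up to 10%, at resolutions 0.4 and 1.2, without integration, with pathway genes kept and with the highest doublet scores removed, and 2 without clusters of low UMI counts. The members lower (1, Rxra) became 4 without the filter, 0 with only the compared classes, at 10% mitochondrial UMIs, at resolution 1.2, without integration and with doublet scores removed, and 2 without clusters of low UMI counts. Leaving out those clusters, an alternative added after the data had been seen, takes away the macrophage-like cluster with the most Aldh1a2, so the call it gains for Aldh1a2 follows from the choice and supports nothing. In other comparisons, DESeq2 gave 2164 genes higher and 2868 lower in T-cell-like cells, and 338 and 69 between CD4-type and CD8-type cells. The members lower in enterocyte-like than in leukocyte-like cells became 0 with DESeq2 and without the filter, and the members higher in CD4-type cells became 1 at resolution 1.2 (Rara, 1.30, edgeR adjusted p-value 0.00796). Causes of these changes were not tested.

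With mouse as a replicate block, 868 in place of 570 genes were higher in dendritic-like than in macrophage-like cells, and the numbers of members called did not change in any of the 5 comparisons.

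Among log2 fold changes that did not pass, the sign turned for Rara between enterocyte-like and crypt-progenitor-like cells (DESeq2 0.09, no filter 0.17, resolution 1.2 0.18, pathway genes kept 0.10, doublet scores removed 0.10), for Rbp2 in T-cell-like cells (doublet scores removed 0.40), and between CD4-type and CD8-type cells for Retsat (DESeq2 0.25, resolution 1.2 0.33) and Aldh1a1 (DESeq2 2.25). Rara also turned between dendritic-like and macrophage-like cells at 10% mitochondrial UMIs (-0.03). Rxra passed between enterocyte-like and crypt-progenitor-like cells without the filter (1.52, edgeR adjusted p-value 0.0177), with only the compared classes (1.29, 0.049) and at resolution 1.2 (1.60, 0.0408). Leaving out 1 mouse leaves no residual degrees of freedom, so the values of each mouse alone are given in the report with no test. Depth limits Bco1, Lrat and Dhrs9 most, with 24, 30 and 43 UMIs.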

Other observations

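Several pathway genes that are not members were high in innate-lymphoid-like cells. Dhrs3 was 186 and 215 CPM there in the 2 mice, Dgat1 264 and 250 CPM, Nrip1 896 and 700 CPM and Rxrg 18.98 and 15.3 CPM, with Rxrg at 1.15 CPM in dendritic-like cells of mouse 2 and at 0 in the other classes of the fit. These genes were picked after their values had been seen.

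Adh1 was counted in T-cell-like cells at 8.94 and 15.3 CPM, in 76 of 2912 and 200 of 5139 cells, against 115 and 166 CPM in enterocyte-like cells. For every 100 Rbp2 UMIs there were 29.4 and 118 Adh1 UMIs in T-cell-like cells, against 1.17 and 0.791 in the enterocyte-like class. The Paneth-like cluster held 42.9 and 24.8. The part of free RNA in the T-cell-like Adh1 counts was not tested. Cyp26b1, which degrades retinoic acid, was 7.33 and 18.3 CPM in dendritic-like cells.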
